A study of Rattus norvegicus albus with 6 samples.

Results

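Genes of the complement cascade and the acute-phase response, 7 of the 8 sought, were followed in activated rat hepatic stellate cells under 3 treatments that interrupt canonical Wnt signalling. They are C1s, Serping1, C3 and C7 of the complement system and Serpina3n, A2m and Lbp of the acute-phase response, out of 14322 genes named on the arrays. Each was taken as the probe set annotated to that symbol alone, and each had 1 such probe set. The eighth, Cfb, encodes the alternative-pathway protease factor B. It was represented only by a probe set annotated also to its neighbour C2, so no value is given for it. The set was put together because C7, Serpina3n and A2m were lower under treatment in these same arrays. All treated-minus-control values below are therefore a description of the arrays and are not tested.

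Hepatic stellate cells are the vitamin A-storing pericytes of the liver sinusoid, which turn into matrix-producing myofibroblasts during fibrosis. Here primary cells from rats were grown for 7 days on plastic in medium with 10% serum until fully activated. The Ad.DKK-1 cells received an adenovirus expressing DKK-1, a secreted antagonist of the Wnt co-receptors, and their Ad.GFP controls received a virus expressing green fluorescent protein. Both infections were at a multiplicity of 200 for 24 h in 5% serum and were followed by a further 24 h in serum-free medium. ICG-001, which blocks the partnership of β-catenin with the coactivator CBP, was given at 10 µM for 24 h in serum-free medium. FJ9, an inhibitor of the contact between the receptor Frizzled and Dishevelled, was given at 200 µM for 24 h in serum-free medium. Each compound had its own vehicle culture, and the sources used here give neither the solvent nor the strain and age of the rats. Neither the promoter that drives each viral transgene nor the species of the DKK-1 insert is given in the sources used here. Each of the 6 groups was 1 array of RNA pooled from 3 to 4 rats. No group has a replicate, so no value below carries an error or a p-value. The nearest measure of how far untreated pools differ is the comparison of the vehicle arrays with each other, over which the log2 differences of the 10025 genes past the level filter described below had a standard deviation of 0.34.

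Complement is a chain of plasma proteases and binding proteins that marks surfaces for removal. The classical pathway starts at the C1 complex and the lectin pathway at collectins and their MASP proteases. Both meet at C3, and the chain ends in a membrane pore assembled from C5b to C9. Acute-phase proteins are secreted proteins whose levels in blood shift during inflammation. Hepatocytes are the main source of both groups in the liver, with induction by interleukin 6 acting through STAT3 and by interleukin 1 acting through NF-κB. Fibroblasts and stellate cells also make several of these proteins.

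The arrays measured log2 expression, and all levels and differences are on the log2 scale. Over 10025 genes past a filter that left out the lowest 30% by mean level, up to 6.39, the median difference from the own control was −0.07 with Ad.DKK-1, 0.01 with ICG-001 and 0.01 with FJ9. All 7 genes passed that filter, C3 narrowly with a mean of 6.42. That mean rested in part on 6.90 with Ad.GFP, the control of Ad.DKK-1. C3 lay under 6.39 with Ad.DKK-1, with ICG-001 and with the vehicle of FJ9. Of 10 measured stellate cell and myofibroblast markers, all lay above 6.39 on every array except Rgs5, a pericyte gene, which read 6.13 with ICG-001. Against its own controls Rgs5 differed by −3.12 with Ad.DKK-1, −2.83 with ICG-001 and −1.17 with FJ9. Lrat, which makes the retinyl esters that stellate cells store, differed by −1.31, −1.42 and −3.34. It read 7.18 with FJ9 against 10.52 with its vehicle, and between 10.04 and 11.96 on the other 4 arrays. Of the 10 markers, 5, 3 and 4 were at least 1.5-fold lower under the 3 treatments, and none was that much higher. Of all filtered genes, 20.8%, 13.1% and 14.8% were that much lower. Of 12 measured hepatocyte markers, 9 lay at or under 6.39 on the Ad.DKK-1, Ad.GFP, ICG-001 and FJ9 arrays, 5 on the vehicle array of ICG-001 and 8 on that of FJ9. The share of all genes at or under 6.39 on each array was not counted. Alb, the main secretory product of hepatocytes, read between 4.99 and 7.25. The 3 hepatocyte markers past the level filter were Ahsg, Hnf4a and Tat. Ahsg read between 7.69 and 8.56, Hnf4a between 6.16 and 6.98, and Tat between 6.10 and 7.06. These marker genes were chosen for naming after their values were seen.

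With Ad.DKK-1, all 7 genes were lower than with Ad.GFP. Their differences ran between −3.89 for C7 and −0.69 for C3, with a median of −1.60. With ICG-001 all 7 lay below the vehicle and 4 were at least 1.5-fold lower, with a median of −0.79. With FJ9, 6 of 7 lay below the vehicle and 3 were at least 1.5-fold lower, with a median of −0.45. The count past 1.5-fold under Ad.DKK-1 was 7 of 7, where 20.8% of all filtered genes were that much lower. The same share was 13.1% with ICG-001 and 14.8% with FJ9. At 2-fold, 6 of 7 genes were lower with Ad.DKK-1, 2 with ICG-001 and 1 with FJ9, where 7.91%, 3.28% and 6% of all filtered genes were. Because the genes were chosen from these contrasts, nothing is read from the counts. Of the 21 treated-minus-control differences, 20 were below 0, and the exception was C3 with FJ9. The other 6 genes were below 0 in all 3 treatments, as were 23.4% of all filtered genes. On 5 of the 7, all but C3 and Lbp, the Ad.DKK-1 array was the lowest of the 6, which held for 27.5% of all filtered genes. For every one of the 7 genes, the difference under Ad.DKK-1 was the most negative of the 3 when each compound was set against its own vehicle. For Lbp this did not hold against the other vehicle or the mean of both, where ICG-001 differed by −2.63 and −1.72. The share of all filtered genes with their most negative difference under Ad.DKK-1 was not counted, so nothing is read from this order. Over all filtered genes the differences had a standard deviation of 0.68 with Ad.DKK-1, 0.56 with ICG-001 and 0.63 with FJ9.

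**Figure D1:**
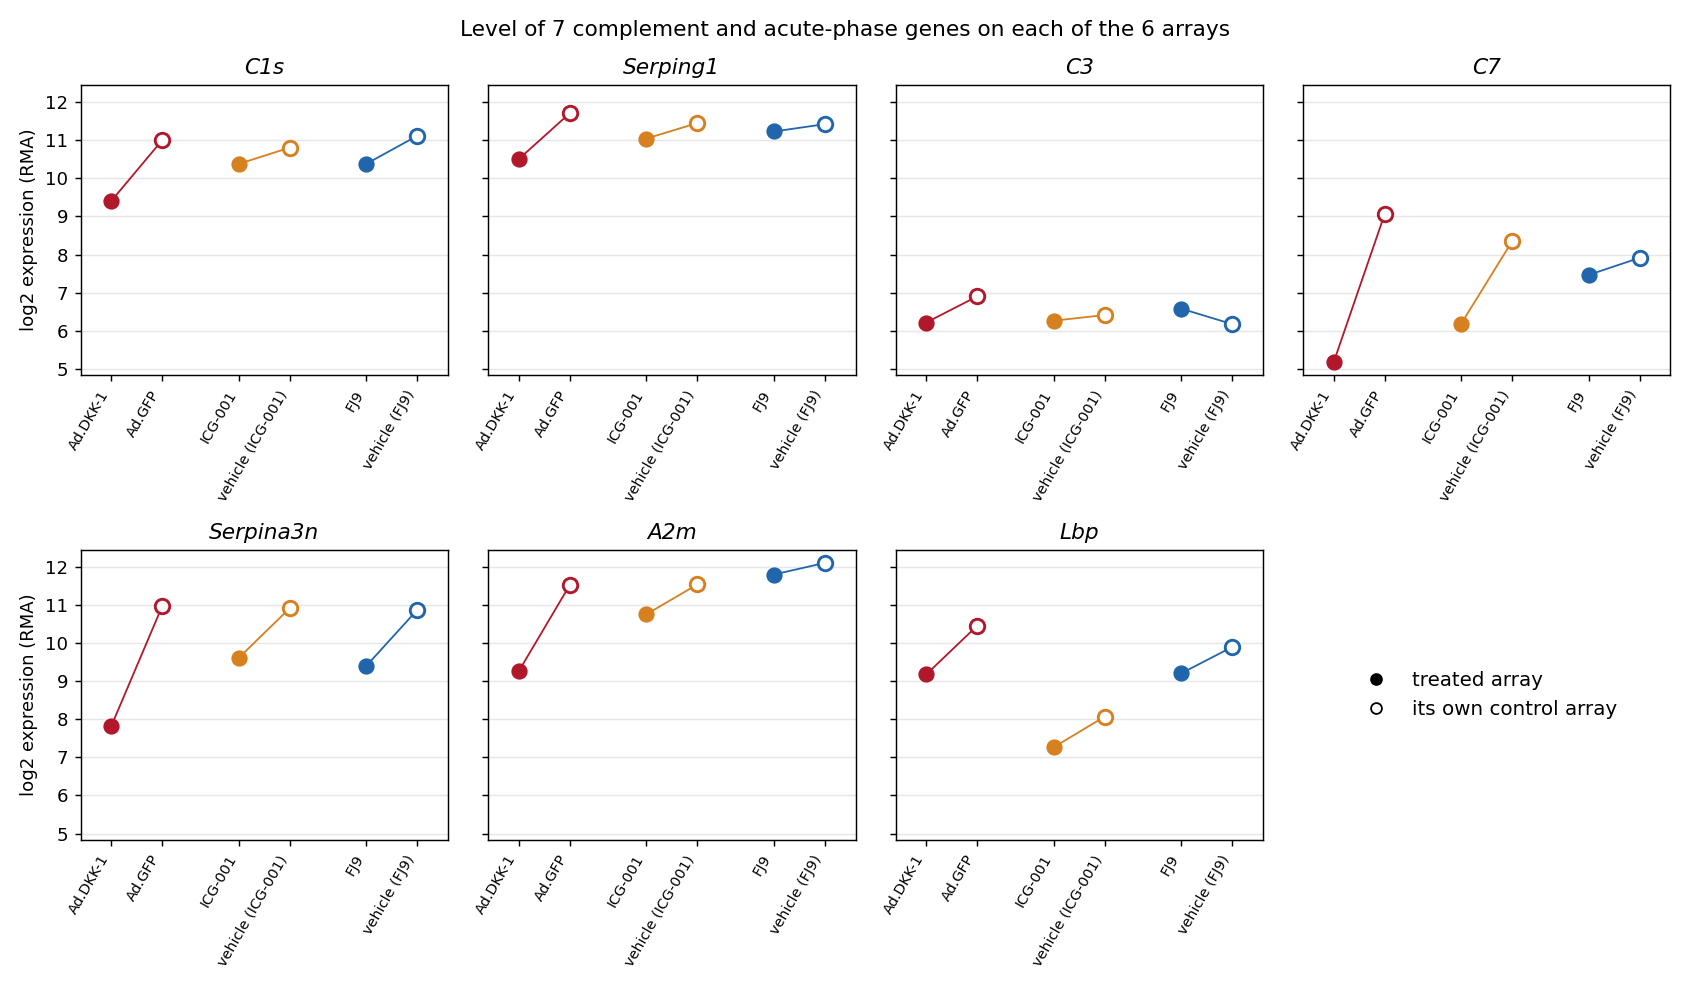
Log2 expression (vertical axis, the same range in every panel) of 7 genes on 6 arrays (horizontal axis), 1 panel a gene. Filled points are treated arrays, open points their own controls, and each line joins such a pair. The line slopes up towards the control in all panels for Ad.DKK-1 and ICG-001, and C3 slopes the other way for FJ9. The panels do not compare levels between genes, since each probe set has its own response.

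C1s encodes the protease of the C1 complex that cleaves C4 and C2 to start the classical pathway. It read 9.41 with Ad.DKK-1 against 11.01 with Ad.GFP, 10.38 with ICG-001 against 10.81 with its vehicle, and 10.38 with FJ9 against 11.12 with its vehicle. The Ad.DKK-1 array was the lowest of the 6, and all 3 treated arrays lay below all 3 controls. The differences were −1.60, −0.43 and −0.74, which is 3.03-fold, 1.35-fold and 1.67-fold lower. The vehicle arrays differed by 0.31, and against the vehicle of ICG-001 the FJ9 difference was −0.43, short of 1.5-fold. Against the vehicle of FJ9, ICG-001 differed by −0.74.

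Serping1 encodes the C1 inhibitor, the serpin that inactivates the C1r and C1s proteases. It read 10.51 with Ad.DKK-1 against 11.71 with Ad.GFP, 11.05 with ICG-001 against 11.46 with its vehicle, and 11.23 with FJ9 against 11.43 with its vehicle. All 3 treated arrays again lay below all 3 controls, but only Ad.DKK-1 passed 1.5-fold. The differences were −1.21, −0.41 and −0.19. The vehicle arrays differed by −0.03, the smallest vehicle difference among the 7 genes. The protease C1s and its inhibitor thus had the same array, Ad.DKK-1, at the bottom.

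C3 encodes the central component whose cleavage product binds covalently to target surfaces. It read 6.21 with Ad.DKK-1 against 6.90 with Ad.GFP, 6.26 with ICG-001 against 6.41 with its vehicle, and 6.58 with FJ9 against 6.17 with its vehicle. The highest array was Ad.GFP and the other 5 lay within 0.41 of each other. The differences were −0.69, −0.15 and 0.41, so FJ9 went the other way, by 1.33-fold. The Ad.DKK-1 difference was −0.50 after quantile normalization of the arrays and −0.56 after loess correction, both short of 1.5-fold. Its levels lay close to the bound of the level filter on all arrays, and C3 had the narrowest range of the 7 genes.

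C7 encodes a late component that joins C5b and C6 and inserts into the membrane at the start of pore assembly. It read 5.18 with Ad.DKK-1 against 9.07 with Ad.GFP, 6.19 with ICG-001 against 8.36 with its vehicle, and 7.47 with FJ9 against 7.92 with its vehicle. The Ad.DKK-1 array was the lowest and the Ad.GFP array the highest of the 6, and all 3 controls lay above all 3 treated arrays. The differences were −3.89, −2.17 and −0.45, or 14.9-fold, 4.50-fold and 1.37-fold lower. Among all filtered genes the first was the third most negative difference under Ad.DKK-1 and the second was in place 31 under ICG-001. The Ad.DKK-1 and ICG-001 levels lay under 6.39, in the range of the weakest genes, and no detection calls were used. The 2 vehicle arrays differed by −0.44, about as much as FJ9 differed from its own vehicle. Against the vehicle of ICG-001, FJ9 differed by −0.89. C7 had the widest spread of differences over the 3 treatments among the 7 genes. Its difference under Ad.DKK-1 minus that under FJ9 was −3.44, and its difference under ICG-001 minus that under FJ9 was −1.72. The difference under Ad.DKK-1 minus that under ICG-001 was −1.72 for C7 and −1.85 for Serpina3n. Whether these exceed the spread between pools was not tested.

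Serpina3n encodes a secreted serine protease inhibitor of the antichymotrypsin family, induced in rodents during the acute phase. It read 7.82 with Ad.DKK-1 against 10.98 with Ad.GFP, 9.62 with ICG-001 against 10.92 with its vehicle, and 9.41 with FJ9 against 10.88 with its vehicle. The 3 control arrays lay within 0.10 of each other, and every treated array lay more than 1 log2 unit below all of them. The differences were −3.16, −1.31 and −1.47, or 8.92-fold, 2.47-fold and 2.78-fold lower. They stood in place 5, 152 and 283 from the most negative of 10025 genes. The vehicle arrays differed by −0.04, and over every scaling and choice of vehicle tried the differences stayed between −3.17 and −3.06, −1.35 and −1.13, and −1.52 and −1.45. Of the 7 genes, Serpina3n and Lbp were at least 1.5-fold lower under all 3 treatments, as were 3.14% of all filtered genes. Serpina3n kept this with either vehicle, and Lbp did not.

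A2m encodes α2-macroglobulin, a protease trap that is a major acute-phase protein of the rat. It read 9.26 with Ad.DKK-1 against 11.53 with Ad.GFP, 10.76 with ICG-001 against 11.54 with its vehicle, and 11.80 with FJ9 against 12.11 with its vehicle. Ad.DKK-1 was the lowest array, and FJ9 lay above the Ad.GFP array and above the vehicle of ICG-001. The differences were −2.27, −0.79 and −0.31, or 4.81-fold, 1.72-fold and 1.24-fold lower. The vehicle arrays differed by 0.57, just short of the 1.5-fold limit of 0.58. Against the vehicle of ICG-001, FJ9 differed by 0.26, and against the vehicle of FJ9, ICG-001 differed by −1.35.

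Lbp encodes lipopolysaccharide-binding protein, which hands bacterial lipopolysaccharide to CD14. It read 9.18 with Ad.DKK-1 against 10.46 with Ad.GFP, 7.27 with ICG-001 against 8.07 with its vehicle, and 9.21 with FJ9 against 9.90 with its vehicle. The differences were −1.28, −0.80 and −0.69, or 2.43-fold, 1.75-fold and 1.62-fold lower. The vehicle arrays themselves differed by 1.83, or 3.55-fold, with the vehicle of FJ9 higher. That was larger than any of the 3 treatment differences of Lbp and was place 10023 of 10025 from the lowest in the vehicle comparison. Against the vehicle of ICG-001, FJ9 differed by 1.14, so the direction of the FJ9 difference depended on the vehicle. Against the vehicle of FJ9, ICG-001 differed by −2.63. Lbp was the only 1 of the 7 genes past 1.5-fold between the vehicle arrays, where 2.44% of all filtered genes were that much higher and 5.2% that much lower.

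**Figure D2:**
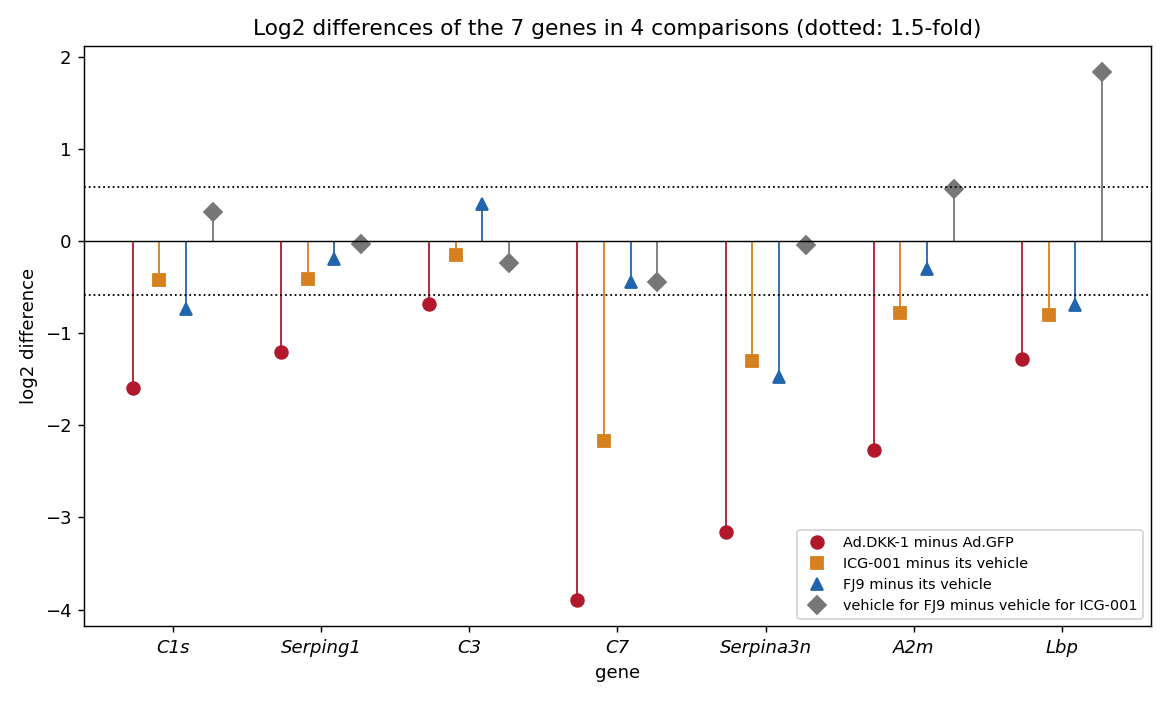
Log2 differences (vertical axis) of the 7 genes (horizontal axis) in 4 comparisons. Each point is 1 array minus 1 array, so there are no error bars, and dotted lines mark 1.5-fold. Under Ad.DKK-1 the points reach −3.89 for C7 and −3.16 for Serpina3n, and the vehicle comparison stands out for Lbp at 1.83.

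The viral controls were set beside the vehicles to see where the Ad.GFP baseline lay, although serum and time in culture differed between them as well as the virus. Ad.GFP minus the vehicle of ICG-001 and minus the vehicle of FJ9 gave 0.06 and 0.10 for Serpina3n, −0.02 and −0.58 for A2m, and 0.26 and 0.29 for Serping1. For C7 these values were 0.71 and 1.15, and for Lbp 2.39 and 0.56. C7 alone of the 7 was at least 1.5-fold higher with Ad.GFP than with both vehicles, as were 3.44% of all filtered genes. Set against the same vehicles, Ad.DKK-1 differed by −3.10 and −3.06 for Serpina3n, by −2.28 and −2.85 for A2m, by −3.18 and −2.74 for C7, and by −1.40 and −1.71 for C1s. Lbp on the Ad.DKK-1 array differed by 1.11 from the vehicle of ICG-001 and by −0.72 from that of FJ9, and C3 lay within 0.20 of both.

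**Figure D3:**
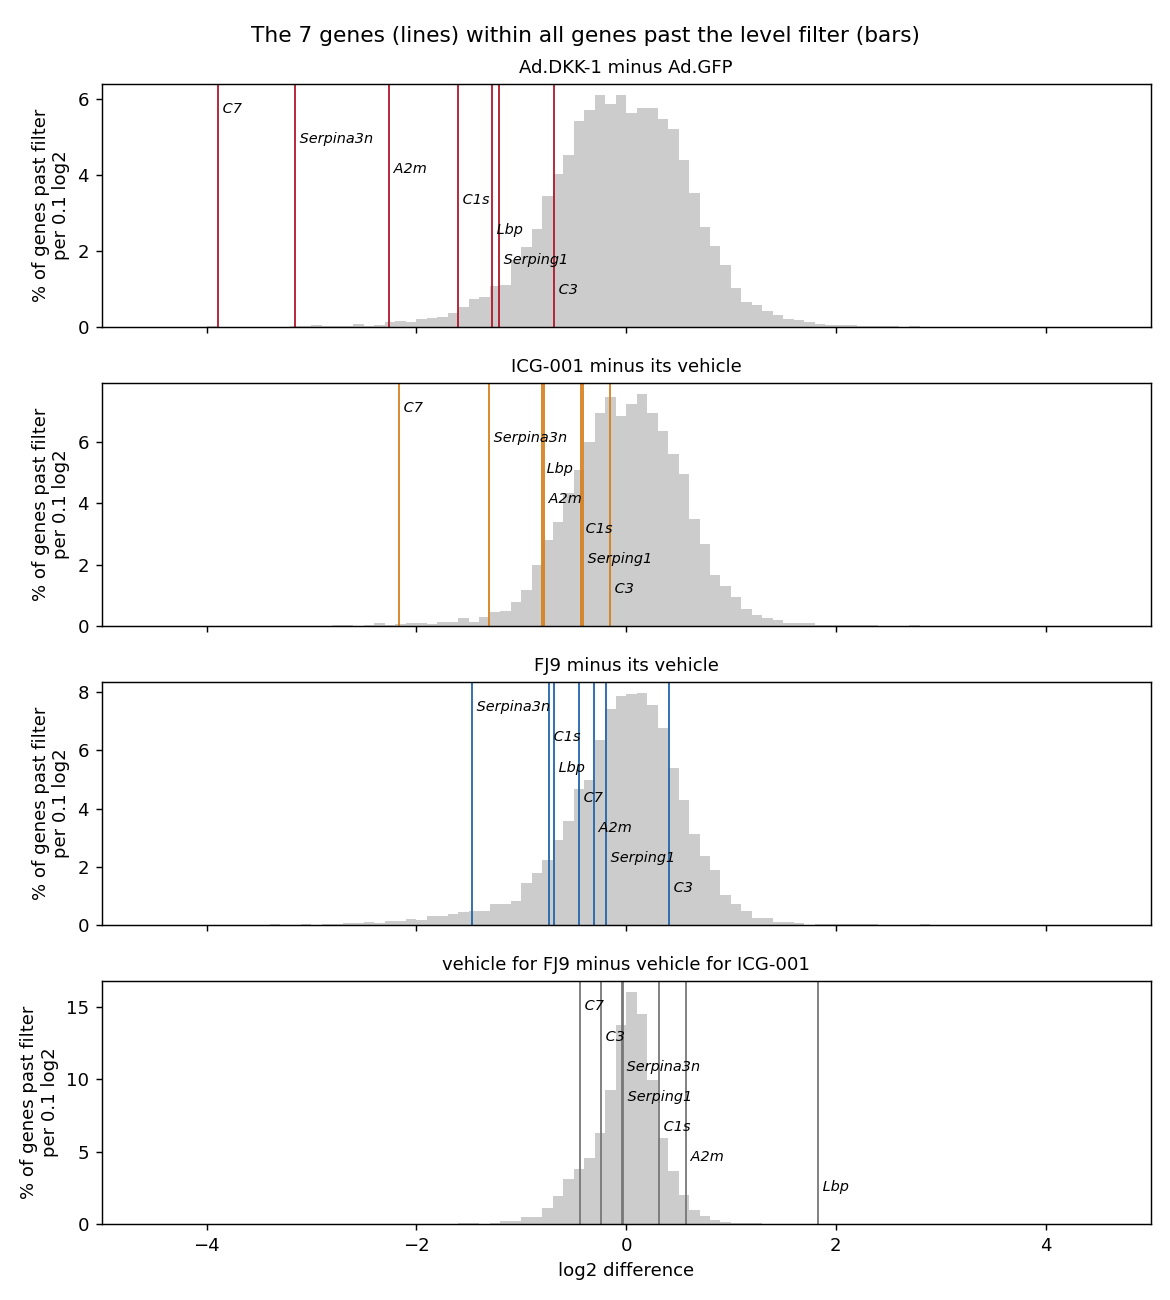
Distribution of log2 differences (horizontal axis, bins of 0.1) over the genes past the level filter, as a percent of genes per bin (bars), with the 7 genes as labelled lines, in 4 comparisons. C7, Serpina3n and A2m lie in the far left tail under Ad.DKK-1, while with FJ9 only Serpina3n lies beyond −1.

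Other genes of the same systems were counted over lists, chosen with earlier results of these data known. Outside the 7 genes, the complement and acute-phase lists held 57 measured genes, of which 26 passed the level filter. Of those 26, 16 were at least 1.5-fold lower and 2 higher with Ad.DKK-1, 7 lower and 2 higher with ICG-001, and 10 lower and 2 higher with FJ9. Of all filtered genes, 20.8%, 13.1% and 14.8% were that much lower under the same treatments, and 14.5%, 12.6% and 11.6% that much higher. The median differences of the 26 genes were −0.72, −0.25 and −0.26. Without the level filter 27, 16 and 14 of the 57 were lower, where 22.6%, 16.3% and 12.3% of all 14322 named genes were that much lower.

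Of complement activation and pore genes, 14 passed the filter, C1s, C3 and C7 among them, and with Ad.DKK-1 11 were lower and 1 higher. The single higher gene was Cfp, which encodes the stabiliser properdin (1.00; named after its value was seen). C6, the partner of C7 in the pore, read 5.28 with Ad.DKK-1 against 7.46 with Ad.GFP, 6.20 with ICG-001 against 7.08 with its vehicle, and 6.90 with FJ9 against 7.05 with its vehicle. Its differences of −2.17, −0.87 and −0.16 thus ran in the same order over treatments as those of C7. For C6, as for C7, the Ad.DKK-1 and ICG-001 levels lay under 6.39, in the range of the weakest genes. Colec11, a collectin that starts the lectin pathway, differed by −2.31, −1.20 and −1.22. Colec12, a scavenger receptor collectin, differed by −1.21, −0.10 and −2.23, and Masp1, a lectin pathway protease, by −0.69, −0.12 and −0.89. With ICG-001 3 of the 14 genes were lower, and with FJ9 5 were lower, without a higher one in either case. Of all filtered genes, 20.8% were at least 1.5-fold lower with Ad.DKK-1, 13.1% with ICG-001 and 14.8% with FJ9. The shares that much higher were 14.5%, 12.6% and 11.6%.

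Of 7 complement regulators past the filter, Serping1 included, 5 were lower with Ad.DKK-1 and none higher. With ICG-001 1 was lower and 1 higher, and with FJ9 2 were lower and 1 higher. The shares of all filtered genes that much lower were 20.8%, 13.1% and 14.8%, and those that much higher 14.5%, 12.6% and 11.6%. Cd46, a membrane cofactor for cleavage of C3b, differed by −1.12, −0.82 and −0.65. Cr1l, which encodes the rodent membrane regulator Crry, differed by −1.11, 0.02 and −0.95. Cd55, which speeds the decay of C3 convertases, went the other way. It read 6.93 with Ad.DKK-1 against 6.59 with Ad.GFP, 9.64 with ICG-001 against 7.44 with its vehicle, and 8.63 with FJ9 against 7.89 with its vehicle. Its ICG-001 difference of 2.20 was the largest increase among the genes of these complement lists. Of 3 receptors past the filter, Cd93 differed by −1.98, −0.75 and −0.17, Itgb2, an integrin subunit of complement receptors on leukocytes, by −1.13, −0.31 and −0.54, and C1qbp, a mitochondrial protein that binds C1q, by 0.45, 0.59 and 0.89.

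Of 9 acute-phase genes past the filter, 3 of them Serpina3n, A2m and Lbp, 5 were lower and 1 higher with Ad.DKK-1. The single higher gene was Hpx (0.88), named after its value was seen. With each compound 6 were lower and none higher. The shares of all filtered genes that much lower were 20.8%, 13.1% and 14.8%, and those that much higher 14.5%, 12.6% and 11.6%. Against the other vehicle or the mean of both, the FJ9 count of lower genes was 4, with no share of all filtered genes counted there. Steap4, a metalloreductase induced by inflammatory cytokines, read 10.48 with Ad.DKK-1 against 11.86 with Ad.GFP, 10.69 with ICG-001 against 11.86 with its vehicle, and 9.12 with FJ9 against 11.47 with its vehicle. Cp, the copper-carrying ferroxidase ceruloplasmin, differed by −1.47, −0.64 and −0.62. F3, the tissue factor that starts clotting, differed by 0.07, −1.02 and −0.86, and Lcn2, an iron-siderophore binding protein, by 0.29, −0.20 and −0.78. Steap4 was past 1.5-fold under every treatment with either vehicle, as Serpina3n was. Cp was past it under every treatment against the own controls as deposited. Against the other vehicle, ICG-001 differed by −0.92 but FJ9 by −0.34. After centring each array on its median, ICG-001 differed from its own vehicle by −0.47. Lrp1, the endocytic receptor that clears α2-macroglobulin complexes, differed by −0.66, 0.12 and −0.42.

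The molecules that act with Lbp were mixed. Of 8 past the filter, 4 were lower with Ad.DKK-1, 1 with ICG-001 and 3 with FJ9, beside 20.8%, 13.1% and 14.8% of all filtered genes. Cd14, the co-receptor that takes lipopolysaccharide from Lbp, read 10.68 with Ad.DKK-1 against 11.63 with Ad.GFP, 10.01 with ICG-001 against 11.12 with its vehicle, and 9.69 with FJ9 against 11.16 with its vehicle. Its vehicle arrays differed by 0.03, unlike those of Lbp. Tlr4, the signalling receptor, differed by 0.01, 0.48 and 0.59, the last of these only just past 1.5-fold and 0.36 against the other vehicle, and its partner Ly96 by −1.14, −0.16 and −0.51. Tlr2, a receptor for bacterial lipoproteins, differed by −0.75, −0.09 and −2.21, and by 1.43 between the vehicle arrays.

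Genes of the cytokine pathways known to induce acute-phase proteins in hepatocytes were listed for comparison. Of 15 genes of the interleukin 6 family and STAT3 pathway past the filter, 5 were lower and 1 higher with Ad.DKK-1, 2 lower and 1 higher with ICG-001, and 4 lower and 1 higher with FJ9, with medians of −0.15, −0.09 and −0.16. The shares of all filtered genes lower by as much were 20.8%, 13.1% and 14.8%, and the FJ9 count was 2 against the mean of both vehicles. Lifr, the receptor for leukaemia inhibitory factor, differed by −1.53, −0.78 and −1.23, and Socs3, a feedback inhibitor induced by STAT3, by −0.64, −0.93 and −0.61. With Ad.DKK-1, Socs3 differed by −0.55 after centring each array on its median and by −0.54 after quantile normalization, both short of 1.5-fold. Osmr, the oncostatin M receptor, differed by −1.14, −0.20 and −0.59. The gene counted as higher was Pim1 with Ad.DKK-1 and ICG-001, and Cebpb with FJ9. Pim1 differed by 0.89, 0.67 and 0.04, and Cebpb by 0.33, −0.04 and 0.83. Of 11 genes of interleukin 1, TNF and NF-κB signalling, 1 was lower under each treatment, 2 were higher with Ad.DKK-1, 2 with ICG-001 and none with FJ9. Against the other vehicle, 5 were higher with FJ9, and 3 were lower and 1 higher with ICG-001. Of all filtered genes, 20.8%, 13.1% and 14.8% were that much lower and 14.5%, 12.6% and 11.6% that much higher against the own controls. Il1r1, the interleukin 1 receptor, differed by −0.97, −0.34 and −0.79. Nfkbiz, a nuclear NF-κB cofactor, differed by 1.44, 0.85 and 0.06, and by 1.20 between the vehicle arrays. Of 12 interferon genes, 10 were lower with Ad.DKK-1, 5 with ICG-001 and 9 with FJ9, beside the same shares of 20.8%, 13.1% and 14.8%. None was higher, and the medians were −1.36, −0.45 and −1.80. The ICG-001 count depended on the vehicle and was 9 against that of FJ9 and 8 against the mean of both. For none of these pathways were shares of all filtered genes counted against the other vehicle or the mean of both. Irf1, an interferon-induced transcription factor, differed by −1.31, −0.82 and −1.59. Of these interferon genes, 6 were also at least 1.5-fold higher on the vehicle of FJ9 than on that of ICG-001. Among all filtered genes that share was 2.44%.

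**Figure D4:**
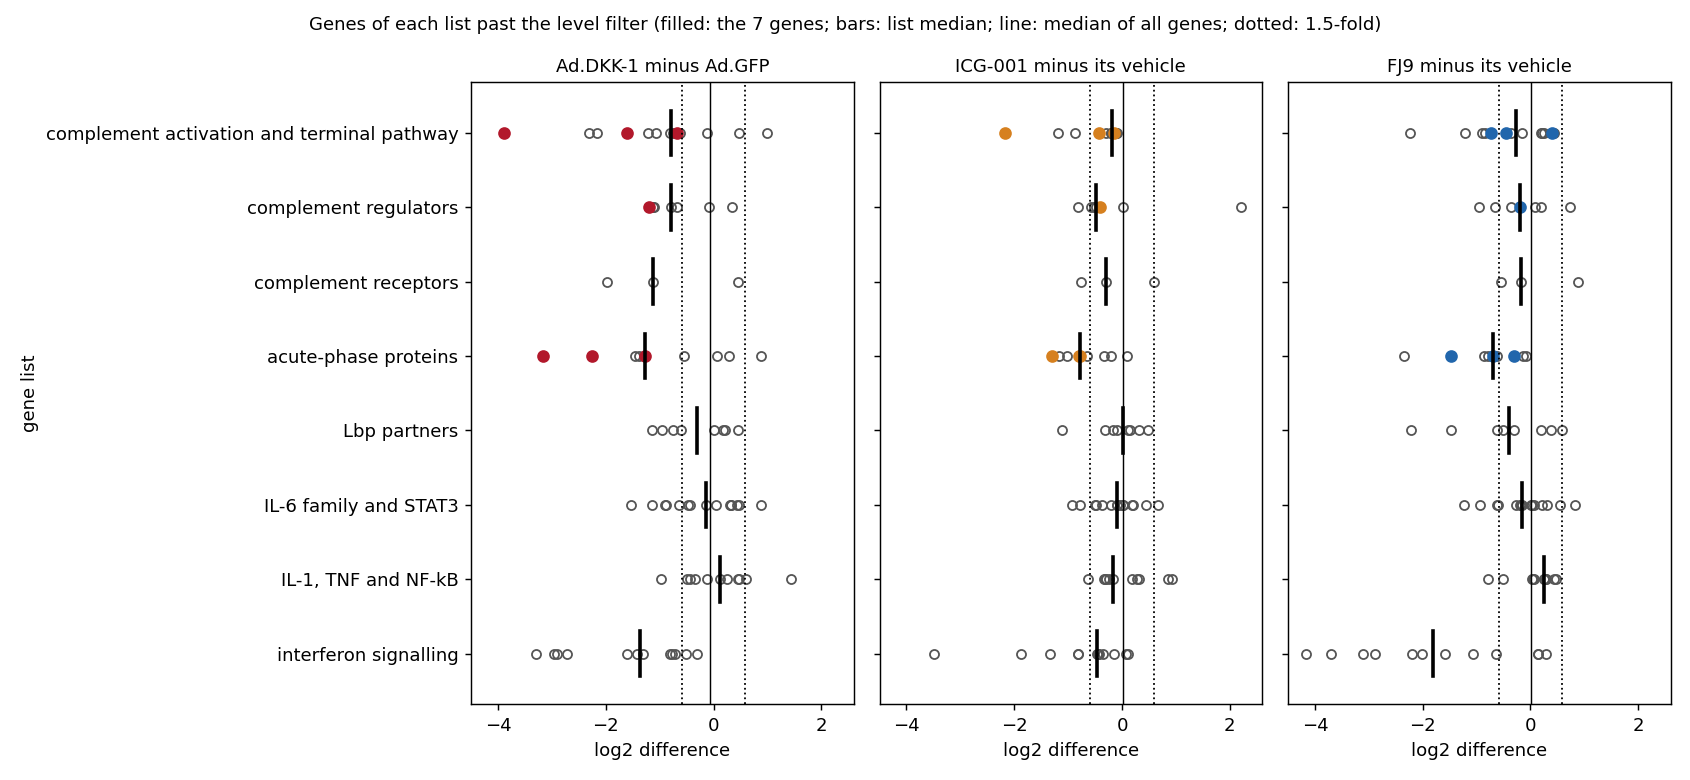
Log2 difference (horizontal axis) of each gene past the level filter in 8 gene lists (vertical axis) under the 3 treatments. Filled points are among the 7 genes, open points are other list members, and a gene may stand in more than 1 list. Thick bars mark list medians, the thin vertical line the median of all genes and dotted lines 1.5-fold. The interferon list has its median at −1.36, −0.45 and −1.80, and the open point at 2.20 in the ICG-001 panel is Cd55.

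Markers of other liver cells that make complement and acute-phase proteins were read on the same arrays. Of 12 macrophage and Kupffer cell markers, all measured, 10 lay at or under 6.39 on the Ad.DKK-1, ICG-001 and FJ9 arrays, against 7, 6 and 6 on their controls. The log2 of their summed linear levels was 9.47 with Ad.DKK-1 and 10.52 with Ad.GFP, 9.64 with ICG-001 and 10.20 with its vehicle, and 10.00 with FJ9 and 10.47 with its vehicle. The 3 markers past the filter, Cd68, Lyz2 and Csf1r, named after their values were seen, differed by −1.12, −1.66 and −0.92 with Ad.DKK-1, by −0.23, −0.18 and −1.17 with ICG-001 and by −0.44, −0.55 and −1.37 with FJ9. The same sum for 12 hepatocyte markers was 9.66 with Ad.DKK-1 and 9.63 with Ad.GFP, 9.92 with ICG-001 and 10.39 with its vehicle, and 9.83 with FJ9 and 9.92 with its vehicle. For 5 mesothelial markers it was 9.67 with Ad.DKK-1 and 10.98 with Ad.GFP, 10.39 with ICG-001 and 10.78 with its vehicle, and 9.93 with FJ9 and 10.49 with its vehicle. For 10 stellate cell and myofibroblast markers it was 15.12 and 15.51, 15.25 and 15.42, and 15.09 and 15.38 in the same pairs. For 2 cholangiocyte markers it was 6.90 and 7.07, 7.26 and 7.52, and 8.10 and 8.11. For 3 endothelial markers it was 7.39 and 7.73, 8.56 and 8.44, and 7.72 and 8.24. The macrophage, mesothelial, cholangiocyte and stellate cell sums were thus lower on every treated array than on its control. The endothelial sum was higher with ICG-001 and the hepatocyte sum with Ad.DKK-1. The part of any of these cells in the results was not tested. Single markers went the other way, among them Clec4f of Kupffer cells with Ad.DKK-1 (0.40), Gpm6a of mesothelium with ICG-001 (0.22) and Krt8 with FJ9 (0.51). Fewer cells of a type and less RNA per cell cannot be told apart in these pools. The share of all genes at or under 6.39 on each array was not counted, so the marker counts have no background. Array medians were 7.01 with Ad.DKK-1 against 7.11 with Ad.GFP, and 7.11 with ICG-001 against 7.28 with its vehicle. With FJ9 and with its vehicle the median was 7.15.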

How the data were processed

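The authors deposited 1 log2 expression value for each probe set and array. Per the submitters' processing notes, the tools were Affymetrix Expression Console and RMA. Their versions and the genome build are not stated in those notes, so no coordinates are printed. RMA corrects background, normalises the arrays and summarises probes, which compresses differences of weak genes. All 26988 probe sets and 6 arrays were used as deposited. Array medians ran from 7.01 (Ad.DKK-1) to 7.28 (vehicle of ICG-001). The platform annotation named 15092 probe sets by 1 symbol and 323 by several, and left 11573 unnamed. Of the 15092, 15062 matched RefSeq gene identifiers of assembly GRCr8, used for names and gene neighbours alone.

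The probe set with the highest mean stood for a gene. Each treated array minus its own control gave the difference, and 1.5-fold was the limit for counting. Groups come from the sample titles. There is no test, since every group is 1 array. The 7 genes and the lists were chosen with earlier results of these data known. From a list, up to 4 genes per comparison with the largest differences were named, and for C7, Serpina3n and A2m the 5 genes with the most similar levels. Alternatives were 3 scalings, other vehicles, averaged probe sets, 2-fold and no level filter. Computation used Python 3.11.15, pandas 2.3.3 and statsmodels 0.14.6, and counting was checked on simulated data. The number of arrays limits the precision.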

Additional observations from a re-analysis of the deposited data

How the results depend on the processing

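Over 3 scalings, 2 other choices of vehicle and averaged probe sets, 112 differences of the 7 genes were recomputed. Of these, 104 moved by less than 0.34, the standard deviation between the vehicle arrays over the filtered genes. The rest all came from the other choices of vehicle. Averaging could move none, since each gene had 1 probe set. Centring shifted all genes of a comparison alike, by less than 0.34, so neither setting could have added to the rest. The direction of Lbp with FJ9 turned to 1.14 against the other vehicle and to 0.22 against the mean of both. At 2-fold the counts of lower genes among the 7 were 6 with Ad.DKK-1, 2 with ICG-001 and 1 with FJ9, and those of the 26 other complement and acute-phase genes were 10, 3 and 3. Without the level filter these other genes had counts of 27 with Ad.DKK-1 and 16 with ICG-001. Against the other vehicle, 5 of the 7 genes were at least 1.5-fold lower with ICG-001 and 2 with FJ9. The share of all filtered genes against that vehicle was not counted, so nothing is read from these counts. Centring each array on its median moved the median difference of all genes with ICG-001 to 0.18 and the split of called genes to 2218 higher and 754 lower, where 1267 and 1314 were counted as deposited, while C7, Serpina3n, A2m and Lbp remained past 1.5-fold there. With Ad.DKK-1 the same centring gave 1874 higher and 1681 lower genes, where 1449 and 2082 were counted as deposited. No paired analysis was possible because every group holds 1 array, and for the same reason no array could be left out. Without detection calls the low C7 and C3 levels have no measured background.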

Other observations

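Genes whose levels ran most like those of 3 of the genes were sought over the 6 arrays by Pearson's correlation, given as a description without a test, since the 6 points include the array pairs that chose the genes. For C7 they were Gper1, a membrane oestrogen receptor (r = 0.998), Gja4, a gap junction connexin (0.996), Glo1, a glyoxalase (0.991), Clec4a1, a C-type lectin (0.988), and Lpin1, a phosphatidate phosphatase (0.988). Gper1 differed by −1.67 with Ad.DKK-1, −0.98 with ICG-001 and −0.27 with FJ9, in the same order as C7 but over a smaller range of 1.67. For Serpina3n they were Marcksl1 (0.996), Vamp3 (0.993), the metalloproteinase inhibitor Timp1 (0.989), the protocadherin Pcdhb21 (0.989) and Ppfibp1 (0.987). Timp1 differed by −1.64, −0.55 and −0.51. For A2m they were Igfbp7, a secreted binding protein (0.997), Mdfi (0.996), Slmap (0.993), Leng1 (0.993) and Gxylt1 (0.990).

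Of the 7 genes, 4 lie beside a related gene in the RefSeq gene order, and these neighbours were looked up after the values were seen. Mug1l1, next to A2m, read 5.58 with Ad.DKK-1 against 8.02 with Ad.GFP, 7.59 with ICG-001 against 8.09 with its vehicle, and 8.08 with FJ9 against 8.23 with its vehicle. Its differences of −2.45, −0.50 and −0.15 stood beside −2.27, −0.79 and −0.31 for A2m. Serpina3l, next to Serpina3n, differed by −1.05, −1.17 and −0.47. Whether the probe sets of these family members share signal with those of A2m and Serpina3n was not tested. C1r, which lies next to C1s and encodes the other protease of the C1 complex, differed by −0.81, −0.21 and −0.36. Bpi, a relative of Lbp that lies next to it, did not pass the level filter, and its differences were −1.12, −0.78 and 0.32. The other neighbours with a value were mixed. Card6 beside C7 differed by −0.10, 0.16 and −0.39, and Gpr108 beside C3 by −0.05, 0.24 and 0.28. Lpcat3 beside C1s differed by −0.80, −0.60 and −0.66. Beside Serping1, Ypel4, under the level filter, differed by −1.50, −0.69 and 0.04, and Ube2l6 by −0.16, −1.17 and −1.32. Iqsec3 beside A2m differed by −0.29, −0.48 and 0.63.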
